A study of Homo sapiens with 2 samples.

Results

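The genes described here encode proteins of the mitochondrial ribosome. Members were the genes on the array whose single symbol in the platform annotation is MRPL or MRPS followed by a digit, with the brightest probe set taken for a gene that has several. The rule gave 74 of 18417 named genes, 48 with an MRPL and 26 with an MRPS symbol, from 33297 probe sets. The choice used symbols only, not the difference between the arrays. Of the 74 members 73 are protein-coding, and MRPS31P5 is listed by RefSeq as a transcribed pseudogene and encodes no subunit.

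RNA came from U251 cells, an established human glioblastoma line grown in high-glucose DMEM. The first culture was given the solvent DMSO and the other 5 µM G-TPP, each for 6 h. G-TPP is a Gamitrinib, an Hsp90 inhibitor of the geldanamycin type joined to triphenylphosphonium, a cation that accumulates in mitochondria, and the study asked how gene expression answers when Hsp90-type chaperones of mitochondria are its target. Each group has 1 array, so there is no replicate check and no error or test can be attached to a difference, and a gene called higher or lower was so between these 2 arrays.

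Mitochondria translate the few messenger RNAs of their own genome, all of them for subunits of the respiratory chain and ATP synthase, on a ribosome of bacterial descent. Its RNAs come from mitochondrial DNA, but every protein of its large (MRPL) and small (MRPS) subunit is encoded in the nucleus, made in the cytosol and imported. Some have bacterial homologues and others were added in the mitochondrial lineage, so the particle is rich in protein and poor in RNA.

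Values are the deposited intensities on a linear scale, and a difference is log2 of the G-TPP intensity minus log2 of the DMSO intensity. A gene was kept if its brighter array reached an intensity of 239.2, the median over all probe sets. Kept were 11091 genes and 73 of the 74 members. MRPL54, a protein of the stalk region, was left out at 205.8 with DMSO and 192.6 with G-TPP. Among kept members 72 passed the filter in both arrays, and MRPS31P5 passed in the G-TPP array alone, so it had to differ. As a scale of measurement noise, the standard deviation of the log2 difference between the arrays was taken. It was 0.18 per probe set, from the gap between the differences of a gene's paired probe sets (320 genes with a differing pair). Over olfactory receptor genes, mostly silent outside the nose, it was 0.19 (341 genes). Both leave out differences between cultures. The medians of all intensities were 224.8 with DMSO and 215.5 with G-TPP. In RNA of a whole culture, fewer cells expressing a gene and less RNA per cell cannot be told apart. The glial and mesenchymal markers VIM and CD44 were bright (7146 and 8013 with DMSO), the astrocyte marker GFAP was dim at 245.2 and 231.5 (G-TPP), and S100B was under the filter. Of 13 measured markers of immune, endothelial, neuronal and epithelial cells 9 were under the filter, and the summed intensity over the 13 was 2244 with DMSO and 2065 with G-TPP. Of the 13, 7 were within the range of silent genes in both arrays, PTPRC of leukocytes, PECAM1 of endothelium and EPCAM of epithelium among them. The 4 above the filter were endothelial CDH5 (319.5 and 304.8), epithelial KRT18 (302.2 and 303.5), myeloid TYROBP (305.7 and 220.4) and neuronal RBFOX3 (248.1 and 231.7). Of 8 kept glial and glioma markers 7 (87.5%) were lower with G-TPP, beside 55.9% of all kept genes. The lowest were PDGFRA (-1.70), SOX2 (-1.44), SOX9 (-0.98) and NES (-0.50). VIM (-0.14), GFAP (-0.08) and CD44 (-0.07) were within the probe set scatter of 0.18, and SLC1A3 was higher (0.64). The part of these markers in the results below was not tested.

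Most member transcripts were slightly lower in the G-TPP array, and MRPL18 was far higher. Of 73 kept members 53 (72.6%) had a difference below 0, beside 55.9% of all kept genes, and 20 had a difference above 0, where the share over all kept genes was 44.0%. Their median difference was -0.12 (log2), against -0.04 over all kept genes, with quartiles of -0.25 and 0.02. Over the 72 protein-coding members the median was also -0.12, with 19 above 0 and 53 below. The gap between members and all genes was small and kept its sign in each scaling and filter tried. It was -0.08 as reported, -0.13 after lowess centring on brightness and -0.12 after quantile normalization. Among the brighter genes above the 75th percentile it was -0.18, and without a brightness filter it was smallest at -0.06.

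At 2-fold the members held no surplus. By measured intensities 2 of 73 members (2.74%), MRPL18 and the pseudogene MRPS31P5, were at least 2-fold higher, where the background over all kept genes, counted in the same way, was 2.8%. MRPS31P5 was not above the range of silent genes with DMSO and is only bounded at 1.94-fold or more, which leaves MRPL18 as the 1 member with a 2-fold difference measured in both arrays. Lower by at least 2-fold were 0 of 73, against a background of 0.55%. At least 1.5-fold higher were the same 2 genes, beside 7.37% of all kept genes. At a smaller size, a log2 difference of 0.32, 15 members (20.5%) were lower beside 13.4% of all kept genes, and 4 (5.48%) were higher beside 16.4%. The other 54 kept members lay between those limits, and 24 of all kept members were within 0.1 of 0 on the log2 scale. Without MRPL18 the protein-coding members ran from -0.62 to 0.41 with a standard deviation of 0.21, a range that includes no 2-fold difference.

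**Figure D1:**
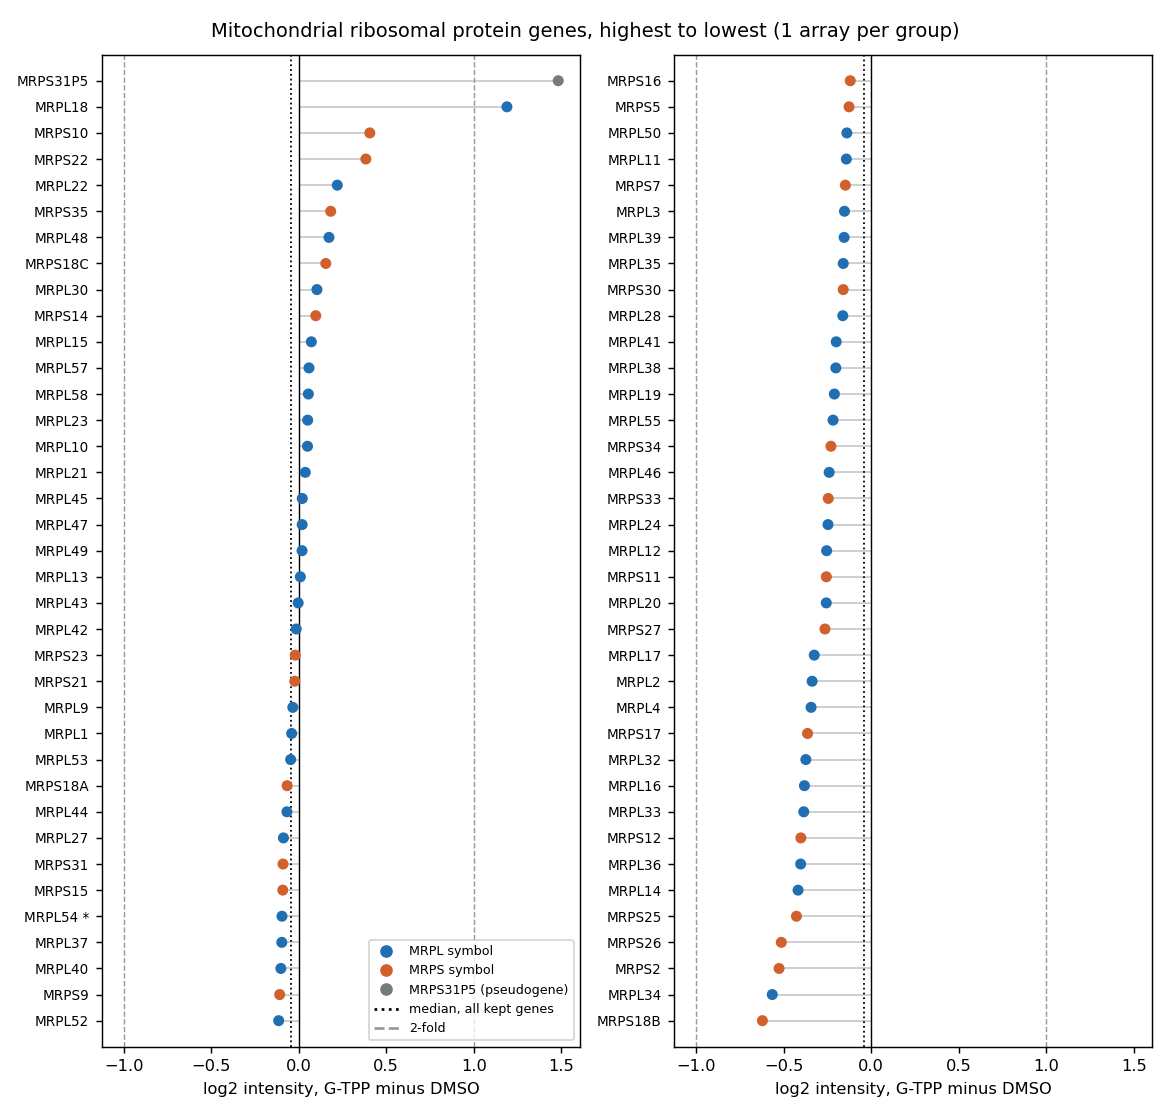
The log2 difference (G-TPP minus DMSO, x axis) of each of the 74 members, ordered from the highest at the top left to the lowest at the bottom right, in colours for MRPL symbols, MRPS symbols and the pseudogene. MRPL18 at 1.19 stands past the dashed 2-fold line, and so does the measured value of MRPS31P5 at 1.48, whose DMSO intensity was under the floor and whose bound of 1.94-fold does not reach that line. All others lie between -0.62 and 0.41, and the asterisk marks MRPL54, which was under the brightness filter.

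The large and small subunits lay at the same place. The 47 kept MRPL genes had a median difference of -0.11, with 14 above 0 and 33 below. The 26 kept MRPS genes had a median of -0.12, with 6 above 0 and 20 below, and the 25 that are protein-coding had -0.13, with 5 above 0. The difference between the medians, large minus small, was 0.01 on the log2 scale. Its sign was not stable, since it ran from -0.02 to 0.03 over the alternatives, so no order of the subunits can be read. MRPS18A and MRPS30 carry small-subunit symbols although their proteins sit in the large subunit, and moving both gave -0.11 for 49 large and -0.13 for 23 small subunit genes. Of the 10 lowest members 5 were MRPS and 5 were MRPL genes, where 26 of all 73 kept members were MRPS genes. The standard deviation was 0.26 over protein-coding MRPS genes. It was also 0.26 over MRPL genes, or 0.17 without MRPL18, and this contrast was not tested.

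**Figure D2:**
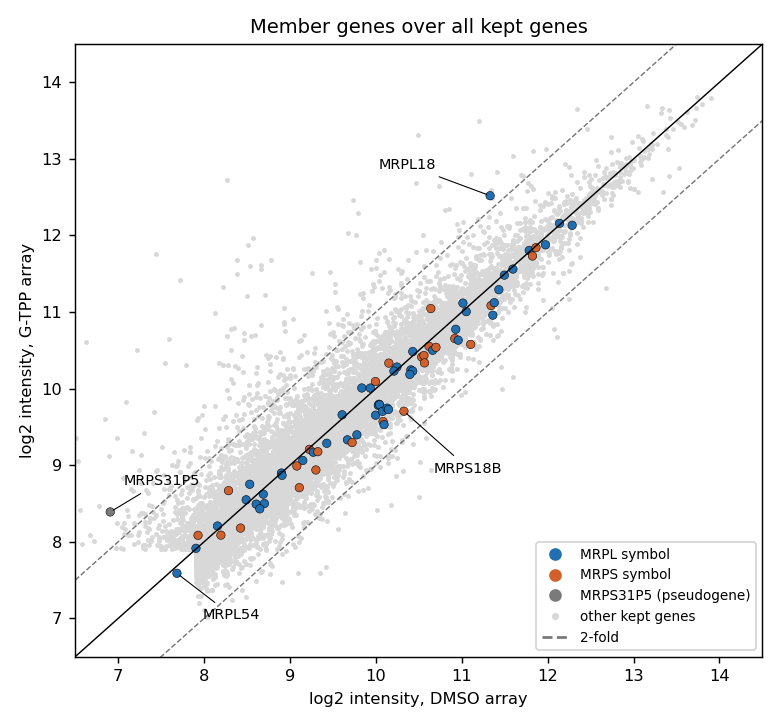
Log2 intensity in the DMSO array (x axis) and the G-TPP array (y axis), with members as coloured points over all 11091 kept genes in grey, a solid line of equal intensity and dashed lines at 2-fold. Members run from dim to bright and mostly sit on or just under the solid line, while MRPL18 stands above the upper dashed line, and the measured value of MRPS31P5 lies there at the dim end, under the floor with DMSO.

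MRPL18 was measured by 1 probe set (8123148). It was at 2575 with DMSO and 5870.5 with G-TPP, a difference of 1.19 or 2.28-fold higher. No other protein-coding member came near it, the next being MRPS10 at 0.41, which leaves a gap of 0.78. Among all kept genes 207 (1.87%) were at least as high as MRPL18. Over the 8 alternatives of filter, scaling, probe set and pseudocount its difference stayed between 1.17 and 1.23. MRPL18 belongs to the central protuberance, the crest of the large subunit that faces the tRNAs. As background, the gene is also known for a shorter product translated from a downstream start codon in heat-shocked cells, which stays in the cytosol and joins cytosolic ribosomes. An array for whole transcripts does not tell that product from the mitochondrial one.

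Among the 6 genes listed for the central protuberance MRPL18 stood apart. Its neighbours there were MRPL48 at 914.2 and 1031 (0.17), the peptidyl-tRNA hydrolase gene MRPL58 at 1379 and 1433 (0.05) and MRPL40 at 618.3 and 576.1 (-0.10), each given as DMSO and then G-TPP with the log2 difference. MRPL38 was at 416.8 and 362.3 (-0.20) and MRPL46 at 1051 and 889.6 (-0.24). Thus 3 of the 6 were above 0 and 3 below, and 1 reached 2-fold.

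The start of MRPL18 lies head to head with that of TCP1, which encodes a subunit of the cytosolic chaperonin CCT, the folding machine for actin and tubulin. In RefSeq the nearest listed starts of both genes are 210 bases apart. TCP1 was at 8733 with DMSO and 9769 with G-TPP, a difference of 0.16, so MRPL18 was higher than TCP1 by 1.03 on the log2 scale of differences. The 8 CCT genes had a median difference of 0.11, with 7 above 0, none at 2-fold and CCT4 the highest at 0.32. The list of 20 heat shock genes, chosen for targets of the heat shock factor HSF1, gave 19 kept genes, all above 0, with a median of 0.93 and 8 at 2-fold. That list was made with earlier results of these arrays known, so its direction is no independent evidence. MRPL18 lay inside its range, above HSPA4L, an Hsp110 gene (1.06), and below CHORDC1, an Hsp90 cochaperone gene (1.30), with 7 of the 19 above it. The mitochondrial chaperonin genes HSPD1 and HSPE1 were at 0.12 and 0.49, below MRPL18.

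**Figure D3:**
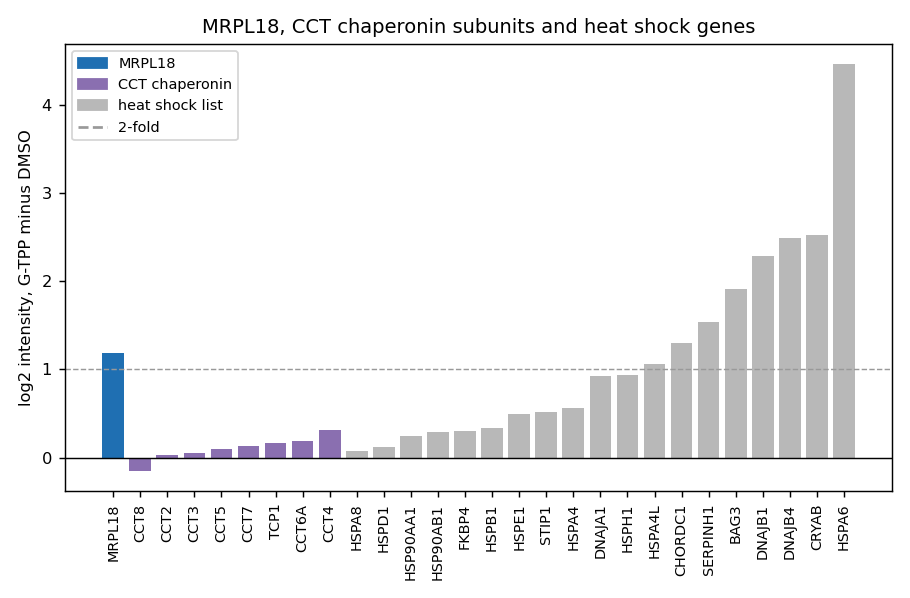
Log2 difference (G-TPP minus DMSO, y axis) of MRPL18, the 8 CCT chaperonin genes and the 19 kept heat shock genes as bars from 0, with a dashed line at 2-fold. MRPL18 at 1.19 is above every CCT gene, TCP1 at 0.16 included, and below 7 heat shock genes; CRYAB, at 92.5 with DMSO, was within the range of silent genes there.

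Promoter windows from RefSeq (GRCh38.p14), each from 250 bases before to 50 bases after an annotated start, were matched for 66 of the 74 members and gave 82 windows. MRPL10, MRPL13, MRPL15, MRPL2, MRPL21, MRPL23, MRPL35 and MRPS31P5 had none. The windows were searched on both strands for fixed letters, and a match is a description of the sequence, not a bound site. The heat shock element is a run of alternating GAA and TTC units, searched as GAANNTTC or TTCNNGAA for a pair of units and, for a run of 3, as such a pair followed by any 2 bases and the next alternating unit. NRF1 was searched as GCGCA, any base and GCGC, the ETS core of GABPA as CCGGAAG, YY1 as AANATGGC and the element of ATF4 and CHOP as TGATGNAAN. The pair of heat shock units lies within the run of 3, and in MRPL48 the ETS core overlaps that run.

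The windows below are shown because they belong to the member with the highest difference among protein-coding genes, to the only member with a run of 3 heat shock units, and to the 2 lowest members. Capitals mark heat shock units in MRPL18 and MRPL48, the YY1 motif in MRPS18B and NRF1 motifs in MRPL34. Each window is marked for 1 kind of motif only. The MRPS18B window also holds a heat shock pair, TTCCTGAA, which is left in lower case. MRPL18 is at chr6:159789617-159789916 (plus strand, the second of 3 annotated starts), MRPL48 at chr11:73787624-73787923 (plus), MRPS18B at chr6:30617590-30617889 (plus) and MRPL34 at chr19:17305622-17305921 (plus, the last of 4 starts). For MRPL18 and MRPL34 the window shown is the one with the most matches to the marked motif. At the other starts of MRPL34, the first and second windows hold no NRF1 motif and the third holds 1.
MRPL18: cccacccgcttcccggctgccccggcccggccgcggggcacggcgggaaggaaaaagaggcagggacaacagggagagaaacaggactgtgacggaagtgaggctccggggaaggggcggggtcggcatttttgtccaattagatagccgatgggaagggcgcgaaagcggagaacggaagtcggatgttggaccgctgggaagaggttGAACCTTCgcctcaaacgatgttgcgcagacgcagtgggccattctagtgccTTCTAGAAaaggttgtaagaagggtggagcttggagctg
MRPL48: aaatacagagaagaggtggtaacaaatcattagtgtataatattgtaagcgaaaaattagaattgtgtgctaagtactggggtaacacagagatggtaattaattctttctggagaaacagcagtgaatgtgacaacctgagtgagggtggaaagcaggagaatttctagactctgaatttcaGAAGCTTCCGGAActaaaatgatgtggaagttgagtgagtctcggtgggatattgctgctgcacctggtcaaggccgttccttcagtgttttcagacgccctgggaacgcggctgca
MRPS18B: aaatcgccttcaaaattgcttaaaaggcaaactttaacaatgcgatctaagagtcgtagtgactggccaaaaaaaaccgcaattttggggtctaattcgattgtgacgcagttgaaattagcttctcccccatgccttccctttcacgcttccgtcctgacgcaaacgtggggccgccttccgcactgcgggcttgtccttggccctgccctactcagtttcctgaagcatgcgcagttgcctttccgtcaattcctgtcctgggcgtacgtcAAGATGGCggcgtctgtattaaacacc
MRPL34: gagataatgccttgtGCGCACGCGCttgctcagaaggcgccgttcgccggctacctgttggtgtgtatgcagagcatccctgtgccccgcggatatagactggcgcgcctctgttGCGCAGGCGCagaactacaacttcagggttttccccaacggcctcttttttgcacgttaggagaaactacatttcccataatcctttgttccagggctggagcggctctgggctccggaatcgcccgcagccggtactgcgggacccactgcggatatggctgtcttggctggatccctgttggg

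In MRPL18 the pair GAACCTTC begins 41 bases before the start shown and the pair TTCTAGAA 11 bases after it. The window of the first annotated start holds GAACCTTC alone, 14 bases after that start, and the window of the third holds no pair. A pair of units was in the windows of 11 of 66 members (16.7%), beside 16.2% of the 27305 genes with a window, so it was no more common among members. The 10 kept members with a pair, MRPL18 among them, had a median difference of 0.06, with 6 above 0. The 55 without had -0.15, with 8 above 0, and members that have no window are in neither group. Over all 72 kept protein-coding members 19 were above 0. This contrast was not tested. The members with a pair included MRPS18B, the lowest of all, and MRPL33 (-0.39). The run of 3 was in MRPL48 alone (1.52% of members, 0.608% of all genes), where GAAGCTTCCGGAA begins 67 bases before the start, and MRPL48 differed by 0.17, which is a small difference.

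The motifs known from nuclear genes of mitochondria were more frequent among members than among all genes. The ETS core was in 29 of 66 members (43.9%) beside 12.2% of all genes, YY1 in 24 (36.4%) beside 7.97%, and NRF1 in 9 (13.6%) beside 6.98%. Larger sets of windows for a gene give more chances of a match, and members had 82 windows for 66 genes beside 35116 for 27305. By window, the ETS core was in 32 of 82 beside 10.3% of all windows. YY1 was in 26 of 82 beside 6.58%, and NRF1 in 10 of 82 beside 5.78%. All genes with a window include genes that encode no protein, while the 66 members are all protein-coding. The shares were not matched for that. The median difference was -0.09 in the 28 kept members with the ETS core and -0.16 in the 37 without. It was -0.11 in the 24 with YY1 and -0.15 in the 41 without, and -0.25 in the 9 with NRF1 and -0.13 in the 56 without. These contrasts also leave out members that have no window, and they were not tested. The element of ATF4 and CHOP was in MRPL55 alone (1.52%, beside 4.45% of all genes), and MRPL55 was at -0.22.

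Among MRPL genes with a bacterial homologue, 30 were kept, and 21 were below 0 with a median of -0.16. Lowest was MRPL34, at 1094 with DMSO and 739.5 with G-TPP (-0.56, 1.48-fold lower). MRPL14, whose protein lies at the interface with the small subunit, went from 1134 to 848.8 (-0.42, 1.34-fold lower). MRPL36 was lower by both of its probe sets, from 2632 to 1991 by the brighter (-0.40) and from 2506 to 1891 by the dimmer (-0.41). MRPL33 went from 1121 to 858.7 (-0.39) and MRPL16, a protein near the peptidyl transferase centre, from 878.9 to 674.7 (-0.38). At the other end MRPL22, a protein that lines the exit tunnel, went from 370.2 to 431.3 (0.22) and MRPL30 from 2067 to 2222 (0.10). In this class 9 of 30 members were lower by at least 0.32, beside 13.4% of all kept genes, and MRPL18 alone was higher by that much, beside 16.4%.

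The 17 kept MRPL genes that encode mitochondria-specific proteins spread less. They ran from -0.24 (MRPL46) to 0.17 (MRPL48) with a median of -0.07, none was 0.32 or more from 0, and their standard deviation was 0.11. The genes with bacterial homologues had a standard deviation of 0.31, or 0.19 without MRPL18. Among small subunit genes the order was the other way, with 0.31 for the mitochondria-specific list and 0.25 for bacterial homologues. For the large subunit, the values of 0.11 and 0.19 are under or near the noise scales of 0.18 and 0.19 given above. With 1 array per group these contrasts of spreads were not tested.

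Proteins of the exit tunnel and the stalk were also followed. The 6 tunnel genes had a median of 0.02, with 4 above 0, and MRPL17, from 1990.1 to 1588 (-0.33), was the lowest. MRPL45, which holds the ribosome at the inner membrane where new proteins leave, was level at 4507 and 4571 (0.02). Of the stalk, where translation factors dock, 4 of 5 genes were kept, with MRPL12 at 1056 and 885.1 (-0.25), MRPL11 at 689.3 and 624.8 (-0.14) and MRPL10 at 285.5 and 295.6 (0.05). No gene of either group reached 1.5-fold.

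Among small subunit genes with a bacterial homologue 10 of 13 kept genes were below 0, with a median of -0.12. MRPS2 went from 2201 to 1529 (-0.53, 1.44-fold lower), and MRPS12, whose protein helps form the decoding centre, from 552.4 to 418.2 (-0.40). MRPS10 went the other way, from 1596 to 2115 (0.41, 1.33-fold higher), the highest protein-coding member after MRPL18. MRPS14 was at 1021 and 1092 (0.10).

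The small subunit genes listed as mitochondria-specific held the lowest member, MRPS18B. That gene is a paralogue of bacterial S18, and its paralogue MRPS18C was listed with the bacterial homologues, so the class label does not hold strictly for MRPS18B. Of 10 kept genes 8 were below 0, with a median of -0.24. MRPS18B went from 1284 to 835.1 (-0.62, 1.54-fold lower) and was the only member at least 1.5-fold lower, beside 3.23% of all kept genes. MRPS26 went from 1086 to 760.6 (-0.51) and MRPS25 from 845.7 to 629.1 (-0.43). Higher in the G-TPP array were MRPS22, from 312.0 to 407.1 (0.38, 1.30-fold higher), and MRPS35, from 1137 to 1291 (0.18).

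Of the paralogues of bacterial S18 only MRPS18B differed by more than the probe set scatter of 0.18. MRPS18B was the lowest member, MRPS18A was near level at 1573 and 1502 (-0.07), and MRPS18C was at 244.0 and 271.6 (0.15), close to the filter. The 3 probe sets of MRPS18B held identical intensities in each array, and so did both of MRPL20 (2663 and 2229, -0.26), so they are not independent measurements. Except MRPL36, MRPL20 and MRPS18B, the other 71 members had 1 probe set each.

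The pseudogene MRPS31P5 has a lower bound only, so it takes no rank among the members. It was at 120.2 with DMSO and 335.7 with G-TPP (1.48 on the log2 scale, 2.79-fold). The DMSO value lay under 172.6, the 95th percentile of olfactory receptors in that array, and against that floor the transcript was at least 1.94-fold higher. Its parent gene MRPS31 was at 541.3 and 508.7 (-0.09), near level. Parent and copy are alike in sequence and can share probes, so the value of either is uncertain.

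**Figure D4:**
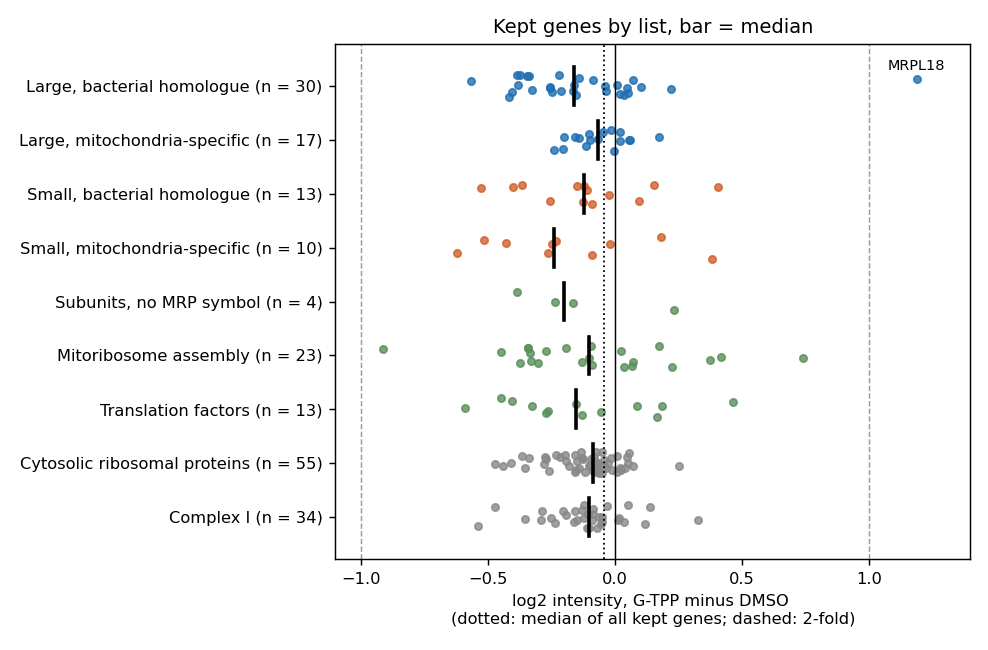
Log2 difference (G-TPP minus DMSO, x axis) of every kept gene in 9 lists, 1 point per gene with random vertical spread and a black bar at the list's median. The member lists, the other genes of mitochondrial translation, cytosolic ribosomal proteins and complex I all have medians between -0.24 and -0.07, and MRPL18 is the single point past 2-fold.

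Subunits without an MRP symbol were likewise mixed. PTCD3, an RNA-binding pentatricopeptide repeat protein of the small subunit, went from 3016 to 2308 (-0.39, 1.31-fold lower). CHCHD1 went from 544.1 to 462.4 (-0.23) and GADD45GIP1, a large subunit protein near the tunnel exit, from 429.2 to 382.7 (-0.17). DAP3, a GTP-binding protein of the small subunit, went from 746.0 to 877.9 (0.23). AURKAIP1 had no probe set of its own. Probe sets with several symbols gave MRPL51 with SPTLC1 (-0.23), MRPS6 with SLC5A3 (0.05), MRPS24 with a read-through gene (-0.11) and MRPS28 with TPD52 (-0.21), none of them near 2-fold, and were left out because they name no single gene.

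Assembly factors of the mitochondrial ribosome lay on both sides of 0. Of 23 kept genes 14 were below 0 and 9 above, with a median of -0.10 and a standard deviation of 0.35. MRM1, a methyltransferase of the large ribosomal RNA, went from 637.0 to 338.6 (-0.91, 1.88-fold lower), and RBFA, which binds the small subunit during maturation, from 358.8 to 262.7 (-0.45). MPV17L2 went from 2169 to 2895 (0.42) and NSUN4, a methyltransferase of the small ribosomal RNA, from 796.7 to 1034 (0.38). METTL15, another such methyltransferase, was at 662.1 and 1107 by its brighter probe set (0.74), but at 116.3 and 132.6 by the other (0.19), which is under the filter. None of the 23 reached 2-fold in either direction.

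Translation factors and messenger RNA binding proteins of mitochondria were lower in 9 of 13 kept genes, with a median of -0.15 and none at 2-fold. MTFMT, which formylates the initiator methionyl-tRNA, went from 1059 to 704.0 (-0.59). LRPPRC, which stabilises mitochondrial messenger RNAs, went from 3351 to 2455 (-0.45), the release factor gene MTRF1 from 299.6 to 226.6 (-0.40), and TSFM, the exchange factor of TUFM, from 634.5 to 505.7 (-0.33). MTRFR, a factor that rescues stalled ribosomes, went from 384.7 to 531.0 (0.47). GFM2 and PDF had no probe set of their own.

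Further sets of genes lay at much the same place as the members. The 55 kept genes for cytosolic ribosomal proteins had a median of -0.09, with 45 below 0 and a standard deviation of 0.14, and the 34 kept complex I genes had a median of -0.10, with 27 below 0. Neither held a gene at 2-fold. The members' median of -0.12 is therefore close to those of both lists, and nothing in these medians is particular to the mitochondrial ribosome.

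Starts that lie head to head within 1000 bases were found for 15 pairs of a kept member and a kept neighbour. In 10 pairs both genes were below 0, in 1 pair (MRPL18 and TCP1) both were above, and in 4 the signs differed. As 72.6% of kept members and 55.9% of all kept genes were below 0, pairs with both below are frequent without any link. Whether neighbours moved together was not tested. The lowest member, MRPS18B, has PPP1R10, a regulatory subunit of protein phosphatase 1, as its neighbour 597 bases away, and PPP1R10 went from 1275 to 739.1 (-0.79), lower than MRPS18B itself. MRPL46 and MRPS11 are a pair of members with starts 320 bases apart, at -0.24 and -0.26. Other neighbours of low members were closer to level, as TMEM63B beside MRPL14 (-0.11), SARS2, the mitochondrial seryl-tRNA synthetase, beside MRPS12 (-0.12) and PIERCE1 beside MRPS2 (-0.11). Across the 15 pairs the differences correlated with r = 0.35, and with r = 0.24 without MRPL18, over genes of the same 2 arrays that are not independent replicates. The widest gap within a pair was that of MRPL18 and TCP1.

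**Figure D5:**
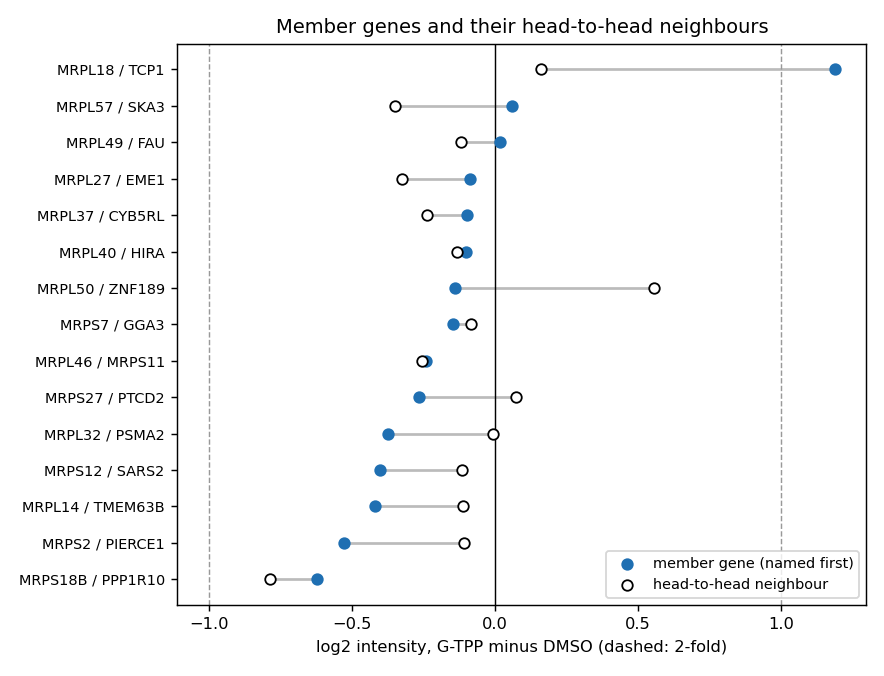
Log2 difference (G-TPP minus DMSO, x axis) of 15 kept members (filled points) and the genes whose starts lie head to head with theirs (open points), a grey line joining each pair, with dashed lines at 2-fold. MRPS18B and PPP1R10 are both low, MRPL46 and MRPS11 nearly coincide, and MRPL18 and TCP1 are 1.03 apart.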

How the data were processed

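The authors deposited a single table of intensities, with 1 value for a probe set on an array. RMA and Affymetrix Expression Console 1.1.2 are named in the submitters' processing notes, and RMA is a method that corrects background, makes the distributions of arrays alike and summarises probes. A change in total RNA per cell is therefore not visible, and the values from 6.61 to 18995 are on a linear scale. The sources used here do not state filters. RNA labelling started from 6 µg of total RNA, per the labels.

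Log2 differences were taken without a pseudocount. Of 33297 probe sets 19460 had 1 symbol, 1754 several and 12083 none in the platform annotation, and only the first kind was used. With 1 array per group no test was possible, and genes were counted past 2-fold. Members, gene lists and motifs were chosen with earlier results of these data known. Named genes were the 10 highest and 10 lowest kept members, MRPL18 and the CCT genes, the MRPS18 paralogues, members with several probe sets, up to 3 per structural group, up to 5 per other list, and head-to-head neighbours. The floor of 172.6 was set after values were seen. Some genes that the rule for named genes does not reach were also named after values were seen. These were MRPS31, CHORDC1, HSPA4L, HSPD1, HSPE1, MRPL30, MRPL55 and, where that rule does not reach them, the 6 genes listed for the central protuberance. The procedure was tested on simulated data. Scripts ran in Python 3.11.15 with pandas 2.3.3 and numpy 2.4.6, lowess came from statsmodels 0.14.6, and plots from matplotlib 3.10.9.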

Additional observations from a re-analysis of the deposited data

How the results depend on the processing

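Of 157 comparisons of a value with its alternative, 151 stayed within the spread set for it, which was the order-statistic interval of a list's median, a factor of 1.5 for counts and the scatter of probe sets for MRPL18. Current RefSeq symbols gave the main values again, and setting the median of all kept genes to 0 cannot move large minus small. The interval takes genes as independent, and for the 4 subunits without an MRP symbol it let medians from -0.20 to -0.08 pass. The count of 151 is therefore no measure of robustness. The median over members ran from -0.15 to -0.08, that of MRPL genes from -0.15 to -0.07 and that of MRPS genes from -0.16 to -0.08. Members at least 2-fold higher by measured intensities numbered 1 in place of 2 at the 75th percentile filter and also 1 without MRPS31P5. At 1.5-fold 1 member was lower in place of 0, and at a log2 difference of 0.32 the count was 15 lower and 4 higher. The median of cytosolic ribosomal proteins was -0.043 in place of -0.087 when the median of all kept genes was set to 0, which also left 47 members below 0. Leaving out MRPS31P5 and adding probe sets with several symbols were chosen after seeing the data. No paired analysis was possible because each group has 1 array, and for the same reason no replicate could be left out. For arrays, their number limits the precision.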
